A study of Homo sapiens with 7 samples.

Results

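GS672.Ug is a subline of PC-3, a human prostate cancer cell line, that was recovered from the urogenital region of a mouse after PC-3 cells had been injected into a vein. Its expression array was set against the 6 other arrays of the series to find the genes in which it stood alone. A gene counted as a member when its value in GS672.Ug lay at least 2-fold above the highest or below the lowest of the 6 others, on a log2 scale with an offset of 46.942 added to each signal. Genes were tested where the mean signal of a probe set over the 7 arrays reached a filter of 160.7. Of 13640 genes tested, 107 met this rule, 57 higher and 50 lower. The same values chose the members, so their size is a description and carries no test.

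The series holds 7 arrays of luciferase-expressing cultures grown without treatment in DMEM/F12 with 10% fetal bovine serum, all descended from PC-3. TEM4-18, hybridised in duplicate, is a PC-3 population selected in culture for crossing a layer of human lung microvascular endothelial cells. GS683.LALN and JD1203.Lu were grown from TEM4-18 cells injected into mice, and from JD549.Ki came GS689.Li out of liver and GS694.LAd out of the left adrenal gland. JD549.Ki is a PC-3 subline recovered from mouse kidney. The labels place GS683.LALN in the left axillary lymph node where the design text has lung, and they give JD1203.Lu a source name of JD549.Ki beside a description that derives it from TEM4-18 and lung. PC-3 itself and JD549.Ki were not analysed here. Every subline is 1 array, so subline, culture, RNA preparation and array cannot be told apart. The TEM4-18 duplicates are not stated to be separate cultures.

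In experimental metastasis, tumour cells injected into a vein lodge in capillary beds, leave the vessel and grow in an organ, and cells cultured from that growth form a subline. Such a subline may carry chance differences of its founding cells as well as changes acquired in the animal, and a single line does not separate them. Promoters differ in their content of CG dinucleotides, the sites at which vertebrate DNA is methylated: CG-rich promoters serve most widely expressed genes, and CG-poor ones more often genes restricted to certain tissues.

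The promoters of 5 of the higher genes show that range, and are given here because these genes had among the 6 widest distances from the other arrays. They come from RefSeq on GRCh38.p14 and span 300 bases, from 250 before to 50 after an annotated transcript start. They read 5′ to 3′ along the gene's strand, with every CG dinucleotide in capitals. The CNTN1 window lies inside the gene, which spans chr12:40692439-41072415, so it is not the promoter at that gene's 5′ end. NLGN4X lies at chrX:6228818-6229117 on the minus strand, PDZRN3 at chr3:73624892-73625191 on the minus strand, CNTN1 at chr12:40827934-40828233 on the plus strand, CHRDL1 at chrX:110795768-110796067 on the minus strand and DHRS2 at chr14:23629865-23630164 on the plus strand.
NLGN4X: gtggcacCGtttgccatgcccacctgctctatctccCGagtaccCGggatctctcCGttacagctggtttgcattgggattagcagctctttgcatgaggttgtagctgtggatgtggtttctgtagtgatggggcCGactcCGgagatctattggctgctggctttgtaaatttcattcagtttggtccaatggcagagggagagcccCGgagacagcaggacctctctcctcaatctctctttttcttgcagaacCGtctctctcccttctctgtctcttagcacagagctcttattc
PDZRN3: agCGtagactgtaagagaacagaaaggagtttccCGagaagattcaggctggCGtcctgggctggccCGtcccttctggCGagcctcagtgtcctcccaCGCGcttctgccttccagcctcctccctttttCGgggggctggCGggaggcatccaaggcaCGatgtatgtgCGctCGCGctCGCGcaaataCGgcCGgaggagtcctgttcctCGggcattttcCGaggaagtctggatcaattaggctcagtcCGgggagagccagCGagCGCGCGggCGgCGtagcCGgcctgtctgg
CNTN1: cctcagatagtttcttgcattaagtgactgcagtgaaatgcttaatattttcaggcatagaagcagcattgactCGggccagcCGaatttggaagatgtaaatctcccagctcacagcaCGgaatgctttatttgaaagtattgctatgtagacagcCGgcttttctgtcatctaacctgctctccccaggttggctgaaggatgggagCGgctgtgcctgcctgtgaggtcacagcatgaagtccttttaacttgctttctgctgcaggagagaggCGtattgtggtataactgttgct
CHRDL1: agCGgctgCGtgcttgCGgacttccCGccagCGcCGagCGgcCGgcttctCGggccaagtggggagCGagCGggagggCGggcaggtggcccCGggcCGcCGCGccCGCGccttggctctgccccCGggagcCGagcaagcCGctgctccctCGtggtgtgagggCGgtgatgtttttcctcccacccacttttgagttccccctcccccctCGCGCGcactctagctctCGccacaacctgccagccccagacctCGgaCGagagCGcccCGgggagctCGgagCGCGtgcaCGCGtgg
DHRS2: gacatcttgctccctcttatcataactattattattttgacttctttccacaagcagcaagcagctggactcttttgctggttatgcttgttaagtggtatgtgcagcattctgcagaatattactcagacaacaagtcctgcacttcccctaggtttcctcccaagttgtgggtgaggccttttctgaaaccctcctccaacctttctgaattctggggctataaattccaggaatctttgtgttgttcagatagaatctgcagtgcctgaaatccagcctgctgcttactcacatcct
DHRS2 had 0 CG in this window, CNTN1 6, NLGN4X 8, PDZRN3 27 and CHRDL1 36. A window was called island-like when its CG count exceeded 0.6 of the count its base composition gives and more than 50% of its bases were G or C. Of the 43 higher members with a RefSeq promoter used here, 21 (48.8%) were island-like, against 8369 of 10997 tested genes (76.1%), 23 of 38 lower members (60.5%) and, among genes that stood alone as higher in another array, 12 of 28 in JD1203.Lu (42.9%) and 7 of 9 in GS683.LALN (77.8%). The share was thus below that of all genes for the higher and lower members of GS672.Ug and for JD1203.Lu, and not for GS683.LALN. Of the 57 higher members, 24 entered the comparison only through GS672.Ug, their mean in the 6 other arrays being under the filter. The set of all tested genes was not chosen that way, so the shares are not of like sets. Only 1 window was read per gene, and others may, like that of CNTN1, lie away from the gene's 5′ end. These shares cover only genes with a promoter in the set used, 43 of 57 higher members and 10997 of 13640 tested genes. Promoters on an entire chromosome were left out of every set compared. The comparison is a description, and the data hold no methylation values.

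Signals had been scaled by the depositors so that every array's mean over the middle 96% of its probe sets was 1500.2, and medians ran from 239.1 to 297.2. The rank correlation of GS672.Ug with each other array over all probe sets was between 0.909 and 0.923. Genes known from PC-3 were high in GS672.Ug, among them keratin 18 (KRT18, 38315 against 29052 to 37338 in the others) and vimentin (VIM, 76215 against 61696 to 81724). KLK2, an androgen-receptor target, was low at 181 (105 to 280), while KLK3, which encodes prostate-specific antigen, read 1347 against 730 to 1339. The other tested genes of the list that PC-3 is known to lack were TMPRSS2, a surface protease under androgen control, at 1193 (44.6 to 2887) and CTNNA1, which encodes alpha-catenin, at 479 (105 to 343), above the range. Of the 8 genes of the urothelium list, UPK1A, UPK1B, UPK2, UPK3A and UPK3B, which encode the uroplakins of bladder lining, read 41.5, 173, 210, 25.5 and 17.6 in GS672.Ug. The other 3 were KRT20, above the range at 144 (16.6 to 110) but with a mean under the filter, PPARG, within it at 6767 (2980 to 10913), and GATA3, a higher member at 2053. The semenogelins SEMG1 and SEMG2 read 29 and 14.4. MSMB, of the same list of secretory genes, was above the range at 151 (4.65 to 122), but with a mean under the filter. The summed signal of 13 endothelial markers was 10623 (3417 to 13411 in the other arrays), of which KDR, a receptor for vascular endothelial growth factor, gave 6380, above the range of 318 to 4792. CDH5 and VWF, which define endothelium, read 17.2 and 85.7. PECAM1 and ROBO4 of the same list read 1372 (604 to 1903) and 1835 (717 to 3307), within the range. The sum of 13 leukocyte markers was 2011 (1600 to 2072).

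The members' number was set beside the same count for each other array. Higher genes made up 0.418% of those tested in GS672.Ug. The share was 0.103% (14 genes) for GS683.LALN, and for JD1203.Lu 0.279% (38 genes). Lower genes made up 0.367% in GS672.Ug, against 1.03% (141 genes) for GS683.LALN and 1.39% (189 genes) for JD1203.Lu. TEM4-18 replicates 1 and 2, although each was compared with its duplicate, had 80 and 57 lower genes, more than the 50 of GS672.Ug. Only 2 and 1 of these kept a signal over the filter, against 13 in GS672.Ug. GS689.Li had 37 lower genes and GS694.LAd 47. Each TEM4-18 array had 1 higher gene, with its duplicate among the 6 compared, while 15 were counted for GS689.Li and 13 for its relative GS694.LAd. Of the 7 arrays GS672.Ug thus had the most higher genes. At a distance of 4-fold it had 21 higher genes, JD1203.Lu 4 and no other array more than 2, while its 3 lower genes compared with 31 in GS683.LALN and 19 in JD1203.Lu. Every other array has a relative among the 7 from the same selected or injected cells, and GS672.Ug has none.

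**Figure D1:**
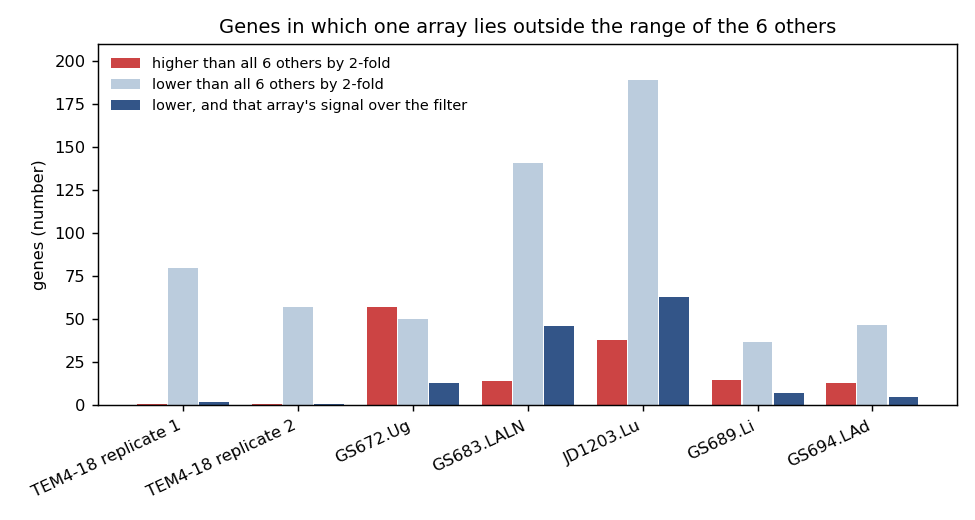
Number of genes in which each array lay outside the range of the 6 others by 2-fold, as higher genes (red), lower genes (pale blue) and lower genes whose signal in that array still passed the filter of 160.7 (dark blue). GS672.Ug had the most higher genes, 57, and 13 of its 50 lower genes kept a signal over the filter.

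The higher members were mostly genes of low signal elsewhere. In 24 of the 57 the mean signal of the 6 other arrays was under the filter, so these genes entered the comparison only through GS672.Ug, and in 6 all 6 others were under it. Signals in GS672.Ug ran from 540 to 15813 with a median of 1330. The distance to the nearest other array had a median of 1.64 on the log2 scale and reached 5.12. The nearest array was GS694.LAd for 18 genes, GS689.Li for 14, JD1203.Lu for 12, TEM4-18 for 10 and GS683.LALN for 3.

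Several higher members are known from neurons, and NLGN4X had the widest distance of all. NLGN4X, which encodes a neuroligin, a postsynaptic adhesion protein that binds neurexins, read 2930 in GS672.Ug, 7.3 and 8.35 in the TEM4-18 duplicates, 5.79 in GS683.LALN, 23.5 in JD1203.Lu, 38.9 in GS689.Li and 6.92 in GS694.LAd. All 6 others were under the offset of 46.942, so the fold has no exact value. The distance was 5.12 (log2) with that offset and 3.38 with an offset at the median of the signals. Its second probe set read 978 against at most 67.7. Among its relatives NLGN1 read 153 (71.6 to 462), NLGN2 1046 (591 to 1253) and the partner NRXN3 1450 (738 to 1517), all within the range of the others. NLGN3, whose mean signal did not pass the filter, lay above the range at 253 (21 to 190), by less than 2-fold.

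CNTN1 encodes contactin 1, a membrane-anchored adhesion molecule of axons. It read 4769 in GS672.Ug, 43.4 and 27.8 in the TEM4-18 duplicates, 31.3 in GS683.LALN, 9.75 in JD1203.Lu, 266 in GS689.Li and 246 in GS694.LAd. GS672.Ug was highest, the JD549.Ki sublines lay next at less than 1/10 of it, and the TEM4-18 family was lowest. Its 3 other probe sets all placed GS672.Ug above the rest, 2 of them by more than 2-fold (2373 against at most 151, and 795 against at most 151). Contactin relatives on the array, CNTN3 to CNTN6, read between 72.6 and 123 in GS672.Ug and none was above the range of the others.

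GPR158, an orphan receptor of neurons, read 999 against 20.2 to 117. SYT14, a synaptotagmin-family membrane-trafficking protein, read 1344 against 5.37 to 287. FEZ1, which links kinesin motors to cargo and takes part in axon outgrowth, read 1281 against 72.3 to 279, and 373 against 138 to 312 on its other probe set. DNAJC6, which encodes auxilin, the neuronal cochaperone that uncoats clathrin vesicles, read 1928 against 102 to 376, but 59.2 against 59.4 to 159 on its other probe set, just below the range. SLITRK4, a neuronal transmembrane protein, read 593 against 18.8 to 206, and its other probe set 264 against at most 25.1. AUTS2, a gene linked to neurodevelopment, read 818 against 5.8 to 120, but neither of its 2 other probe sets placed GS672.Ug outside the range. NEO1, which encodes the guidance receptor neogenin, read 808 against 124 to 264, with 1 of 2 other probe sets above the range (564 against 79.1 to 145). GPR158 and SYT14 had no other probe set.

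The wider neural and neuroendocrine list did not share this. Its 18 tested members had a median difference of 0.09 (log2) between GS672.Ug and the mean of the 3 other groups, 11 above 0 and 7 below, where all tested genes had a median of 0.03 with 53.4% above 0. CNTN1 was its sole member outside by 2-fold. BEX5, of the brain-expressed X-linked family, read 5222 in GS672.Ug but also 3632 and 4434 in GS689.Li and GS694.LAd, against 38.6 to 442 in the TEM4-18 family.

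Secreted and surface regulators of growth signalling formed the next group. CHRDL1 encodes chordin-like 1, a secreted antagonist of bone morphogenetic proteins. It read 3380 in GS672.Ug, 151 and 73.5 in the TEM4-18 duplicates, 183 in GS683.LALN, 189 in JD1203.Lu, 171 in GS689.Li and 52.8 in GS694.LAd. GREM1, which encodes gremlin 1, another secreted antagonist of the same ligands, lay on the other side, at 166 against 701 and 765 in TEM4-18, 429 in GS683.LALN, 418 in JD1203.Lu, 978 in GS689.Li and 771 in GS694.LAd. Its other probe set read 60 against 291 to 590. Noggin (NOG) read 5049 against 842 to 4457 and follistatin (FST) 37122 against 6846 to 44061, and for both the JD549.Ki sublines were nearest.

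SFRP1, a secreted WNT-binding protein, read 1951 against 241 and 159 in TEM4-18, 177 in GS683.LALN, 52.4 in JD1203.Lu, 192 in GS689.Li and 194 in GS694.LAd. Of its 3 other probe sets, 1 gave 729 against at most 142 and another 278 against at most 157. LEF1, a transcription factor that acts with beta-catenin on WNT targets, read 752 against 18.6 to 247. Its other probe sets read 126 against 8.77 to 116, and 29.1 against 29.9 to 133, just below the range. The relatives SFRP2, SFRP4, SFRP5 and FRZB read between 16.5 and 91.6 and lay within the range. TCF7L2, another beta-catenin partner, was at 3284 against 3322 to 4802. Of the 29 WNT genes tested, 18 lay below the mean of the other groups and 11 above, with a median of -0.06.

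PDGFRA, the alpha receptor for platelet-derived growth factor, read 6026 in GS672.Ug, 499 and 433 in TEM4-18, 41.1 in GS683.LALN, 899 in JD1203.Lu, 947 in GS689.Li and 643 in GS694.LAd. GS672.Ug was 6.37 times the next array and GS683.LALN the lowest. Of 3 other PDGFRA probe sets, 1 was above the range (377 against at most 190), another was just below it and the third lay inside. PDGFRA is also among 13 fibroblast and smooth muscle markers, whose summed signal was 24510 (5517 to 33587). COL1A1 gave 16448 of it (3071 to 30752 in the others), so the sum says little of the other markers. Of the 8 tested, PDGFRA and ACTA2 (609 against 172 to 367) lay above the range and DCN just below it (102 against 105 to 487). PDGFRB read 73 (13.8 to 155), and of the ligands PDGFB was below the range at 303 (493 to 895) while PDGFC read 7063 (6369 to 9746). ANGPT1, angiopoietin 1, the activating ligand of the TIE2 receptor, read 1604 against 114 to 434, whereas ANGPT2 read 9.64 and was high only in GS689.Li and GS694.LAd (788 and 1071). TEK, which encodes TIE2, read 28.3 (14.2 to 174).

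Several higher members encode transcription factors of development. GATA3, a regulator of luminal epithelium and T cells, read 2053 in GS672.Ug, 292 and 273 in TEM4-18, 386 in GS683.LALN, 466 in JD1203.Lu, 694 in GS689.Li and 458 in GS694.LAd. Its 2 other probe sets also placed GS672.Ug above the range, by less than 2-fold. GATA3 is also 1 of 8 urothelium markers, whose summed signal was 9432 in GS672.Ug and 3740 to 11854 in the others. PPARG gave 6767 of it in GS672.Ug, and the uroplakins were low as given above. GATA2 differed in pattern, at 1375 in GS672.Ug, 1415 and 1181 in the JD549.Ki sublines and 19 to 247 in the TEM4-18 family. RARB, a retinoic acid receptor, read 785 against 70.2 to 266, with 1 of 4 other probe sets at 431 against at most 74.5, while RARA read 811 (566 to 1030) and RARG 1383 (175 to 1707). RFX6, a factor of pancreatic endocrine development, read 2109 against 46.5 to 714. HOPX, a small homeodomain protein without DNA-binding activity of its own, read 1601 against 30.7 to 724. Its other probe sets read 82.6 against 12.1 to 77.7, and 34.4, inside the range. Of 45 tested genes in the list of HOX and developmental factors, 10 (22.2%) lay above the range of the others at any distance, against 15.7% of all genes. Only GATA3 was outside by 2-fold. The list's median difference from the mean of the 3 other groups was 0.03, as for all genes, with 23 above 0 and 22 below.

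Epithelial and cytoskeletal genes contained the most strongly expressed members. KRT75, a type II keratin of hair follicles, read 15813 in GS672.Ug, 2512 and 2168 in TEM4-18, 565 in GS683.LALN, 3458 in JD1203.Lu, 1517 in GS689.Li and 3581 in GS694.LAd. CLDN11, a tight-junction claudin, read 12064 against 2443 and 2706 in TEM4-18, 5650 in GS683.LALN, 850 in JD1203.Lu, 5793 in GS689.Li and 3416 in GS694.LAd. TNS4, a tensin that binds integrin tails, read 3349 against 59.9 to 653, whereas TNS1 was shared with GS689.Li and GS694.LAd (1165, 1237 and 1023). CXADR, the coxsackie and adenovirus receptor of epithelial junctions, read 2529 against 42.5 to 433. COBL, an actin nucleator, read 782 against 32.8 to 103. HOOK1, a linker of dynein to cargo, read 1121, with 435 and 355 in the JD549.Ki sublines and 8.22 to 37 in the others. AFAP1L1, an actin-associated adaptor, read 4915 against 1517 to 2339, but 1098 against 620 to 1053 on its other probe set.

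Other junction genes were higher by less than 2-fold. CLDN4 read 6551 against 2619 to 3547, GJB2, a gap-junction connexin, 1101 against 10.7 to 601, and EPCAM, an epithelial adhesion molecule, 4626 against 1147 to 2330. Of 22 junction genes tested, 6 (27.3%) lay above the range and 1 (4.55%) below, and of 7 keratins 4 (57.1%) lay above and 0 below. Of all tested genes, 15.7% lay above and 13.2% below. CDH6, a class II cadherin, was lower at 209 against 480 to 1790, with 4 of 5 other probe sets below the range, while the abundant class II cadherin CDH11 read 34422 (24534 to 40518).

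Some higher members encode proteases and metabolic enzymes. KLK10, a kallikrein-related serine protease, read 1526 in GS672.Ug, 15.8 and 19 in TEM4-18, 12.4 in GS683.LALN, 17.5 in JD1203.Lu, 15.3 in GS689.Li and 19.9 in GS694.LAd. All 6 others were under the offset. Its other probe set did not follow, at 95.9 against 47.2 to 243. KLK8, KLK11 and KLK12, its neighbours in the kallikrein cluster, read 85, 163 and 441 and none was above the range. KLK8 and KLK11 had mean signals under the filter, and KLK12 lay just below the range (525 to 701). DHRS2, a short-chain dehydrogenase, read 5441 against 514 and 307 in TEM4-18, 545 in GS683.LALN, 453 in JD1203.Lu, 358 in GS689.Li and 214 in GS694.LAd, and its other probe set 2289 against at most 379. CYP2J2, an epoxygenase of arachidonic acid, read 772 against 19.5 to 206. EPHX2, the soluble hydrolase of the epoxides such enzymes make, read 1344 against 432 to 601, while EPHX1 read 4606 (3105 to 7786).

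Among the remaining members, PDZRN3, a ubiquitin ligase that acts at the neuromuscular junction, read 1789 in GS672.Ug, 4.65 and 11.1 in TEM4-18, 57.6 in GS683.LALN, 60.8 in JD1203.Lu, 34.3 in GS689.Li and 7.93 in GS694.LAd. One of its other probe sets gave 369 against at most 35.9 and the second lay inside the range. LITAF, an endosomal membrane protein, read 1520 against 25.9 to 164, and a further probe set 1101 against at most 165. SLFN11, which blocks replication forks under DNA damage, read 3322 in GS672.Ug, 460 and 615 in TEM4-18, 7.78 in GS683.LALN, 220 in JD1203.Lu, 177 in GS689.Li and 24.3 in GS694.LAd. FRG1GP, a pseudogene related to FRG1, read 2050 against 115 to 335, and its probes may share sequence with related copies. PYCARD, the inflammasome adaptor ASC, read 885, with JD1203.Lu next at 392 and the others at 18.6 to 117. CD70, a ligand of the TNF family, read 943 against 337 to 414. ITM2A and TCN1 read 4459 and 3723, with GS694.LAd next at 1326 and 1413.

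**Figure D2:**
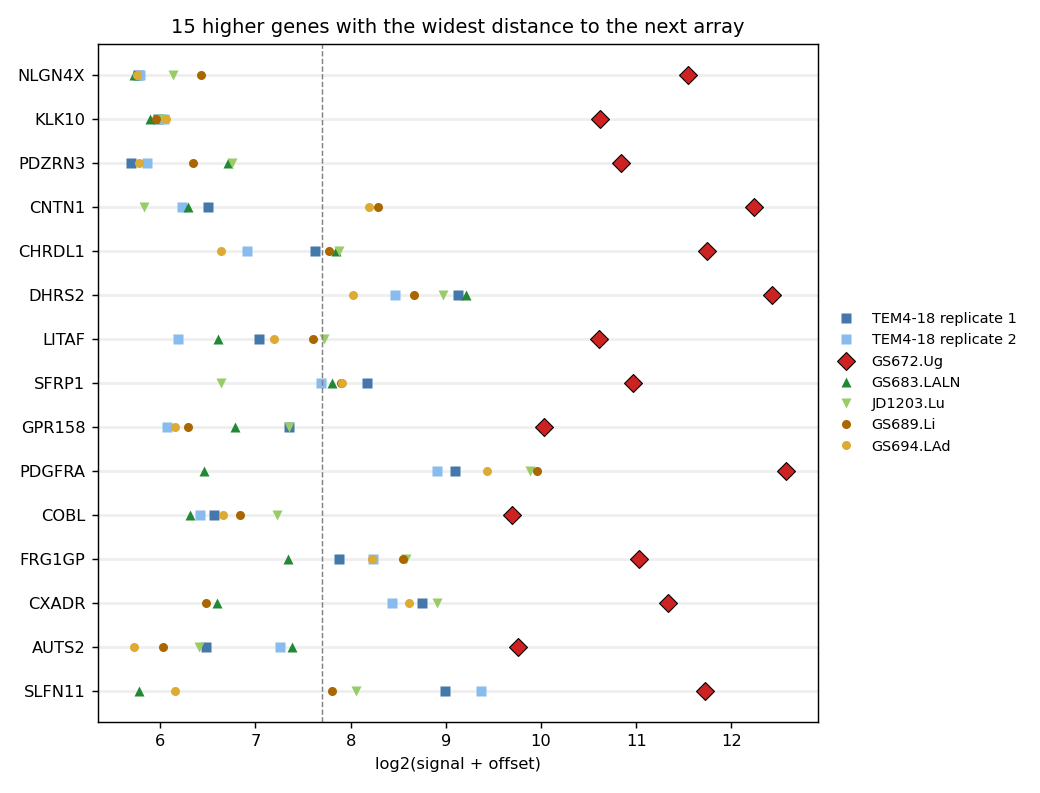
The 15 higher genes with the widest distance to the nearest other array, as log2 of the signal plus an offset of 46.942 (x axis), 1 point per array, with the filter of 160.7 as a dashed line. GS672.Ug lay from 2.35 (SLFN11) to 5.12 (NLGN4X) log2 units above the next array.

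The genes just inside the 2-fold threshold were CLDN11 (1.05) and AFAP1L1 (1.06), and those just outside were KIF5C (0.997), a neuronal kinesin, and EPCAM (0.975). On the lower side GPANK1 (-1.003) and PLEKHO1 (-1.004) lay just inside, with SERPINB3 (-0.985) and OSCP1 (-0.982) just outside.

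Probe sets that the rule did not use were read for the same genes. Of the 57 higher members, 39 had 70 other probe sets. GS672.Ug lay above all 6 others in 38 of these and by 2-fold in 19, that is 54.3% and 27.1%, against 14.9% and 0.453% of the other probe sets of all tested genes. They share the RNA of the array that chose the members, so they bear on the probes and not on the culture. Of the lower members, 26 had 42 other probe sets, with 20 below the range and 7 below it by 2-fold, 47.6% and 16.7% against 14.1% and 0.448%.

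The 50 lower members were weaker. Their median distance was -1.22, the signal of GS672.Ug was under the filter in 37 and under the offset itself in 26, and its median was 43.6 where the median of the others' medians was 301. With a larger offset, the median over all arrays, only 3 of the 50 stayed 2-fold lower, against 37 of the 57 higher genes. The widest distances were those of SUGCT, a mitochondrial coenzyme A transferase (34 against 378 to 647), ZNF585A, a zinc finger protein (37.6 against 326 to 581), UCA1, a long noncoding RNA named for urothelial cancer (15.7 against 206 to 1305), CHST1, a keratan sulfate sulfotransferase (11.7 against 173 to 456), UBXN10 (28.1 against 212 to 520) and LYZL6 (39 against 226 to 352). Of these 6 genes, SUGCT, UCA1 and LYZL6 had no other probe set, CHST1 and UBXN10 none below the range, and ZNF585A 2 of 3 below it.

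In the 13 lower members whose signal in GS672.Ug passed the filter the difference was read between measured values. OPN3, which encodes an opsin expressed outside the eye, read 3613 in GS672.Ug, 9157 and 8819 in TEM4-18, 8110 in GS683.LALN, 9905 in JD1203.Lu, 9633 in GS689.Li and 10840 in GS694.LAd. The others lay close together (SD 0.14, log2, n = 6), and a second OPN3 probe set read 1017 against 1900 to 2940. CALHM2, a large-pore channel subunit, read 180 against 647 to 1231 and 42.2 against 792 to 1377 on its other probe set. PMEPA1, a TGF-beta-induced inhibitor of the same pathway, read 351 against 825 to 1352. MCOLN3, a lysosomal cation channel, read 400 against 867 to 1921, with all 3 other probe sets below the range. ESAM, an endothelial adhesion molecule, read 264 against 607 to 2489. PBX2, a homeodomain partner of HOX proteins, read 310 against 777 to 1115, and GPANK1 1885 against 3825 to 5436. Of 3 other PBX2 probe sets, 1 was below the range (359 against 627 to 891) and the rest lay inside it. The other GPANK1 probe set read 540 against 801 to 1252.

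**Figure D3:**
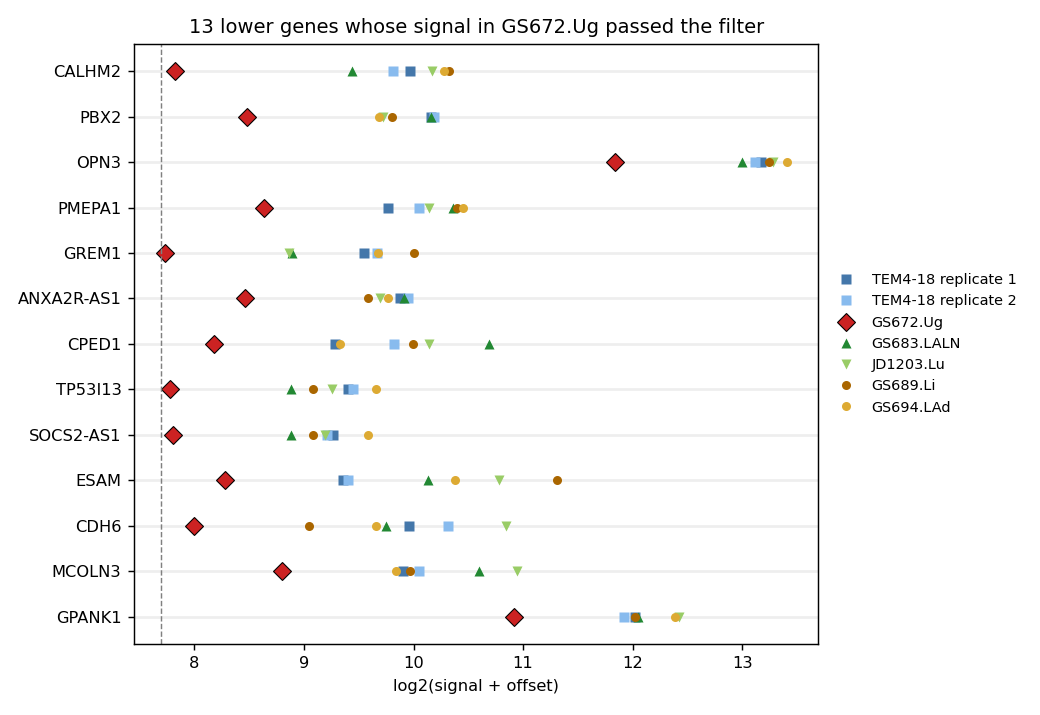
The 13 lower members whose signal in GS672.Ug passed the filter (dashed line, 160.7), as log2 of the signal plus 46.942, 1 point per array. GS672.Ug was the lowest in each, from 1.61 (CALHM2) to 1.00 (GPANK1) log2 units below the next array.

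Chromosome X held 8 of the 57 higher members and 3.31% of tested genes; these 8 were NLGN4X, CHRDL1, RADX, RNF128, ITM2A, SLITRK4, DCAF12L2 and NUDT10. Among neighbours in gene order, 3 pairs were higher together. HOOK1 and CYP2J2 lie on chromosome 1 with starts 78359 bases apart, and the genes before and after them, FGGY (1011 against 662 to 1045) and NFIA (1278 against 1048 to 2461), lay within the range. RADX, a single-strand DNA-binding protein of replication forks, and RNF128, a ubiquitin ligase, lie on chromosome X with starts 81860 bases apart. Around them PWWP3B read 1678, under GS694.LAd at 1995, and TBC1D8B 1464, just over GS694.LAd at 1363. SLFN11 and SLFN13 lie on chromosome 17 with starts 84791 bases apart. SLFN13 read 540 against 24.6 to 206, and SLFN5 before them 1784 against 556 to 1423. PTPN20 and GDF2 on chromosome 10 were lower together, both with signals in GS672.Ug under the filter (67.7 and 40.8). The other 3 of 7 neighbouring pairs went opposite ways. CASC23 on chromosome 11 was lower (33.3 against 147 to 432) beside TUB, higher at 774 (130 to 329). ZNF268 on chromosome 12 was lower (11 against 84.1 to 417) beside ANHX, higher at 602 (83 to 216). ITGAM on chromosome 16 was lower (22.1 against 117 to 305) beside PYCARD, which was higher. The other ITGAM probe set went the other way, at 179 against 22.7 to 166. For ZNF268 and ANHX the other probe sets lay inside the range. Those of TUB lay inside it, above it (411 against 59.6 to 233) and below it (49.2 against 62.4 to 453).

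Smaller shifts ran along whole stretches of chromosomes, an arrangement noticed after the values were seen and given without a test. Tested genes with a RefSeq position were split into 682 runs of about 20 neighbours, and each array's run median was taken as the median difference from the mean of the 6 other arrays. GS672.Ug lay at least 0.3 (log2) below every other array in 11 runs, all on chromosome 6, and above every other in 7, of which 5 on chromosome 17. For the other arrays the lower count ran from 0 to 10 and the higher from 0 to 11. None of their lower runs lay on chromosome 6, and none of their higher runs on chromosome 17. Higher runs were found on chromosome 6 in JD1203.Lu and on chromosome 15 in GS689.Li.

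From PRP4K to MRPS18A on chromosome 6 (GRCh38.p14, chr6:4021300-43687791), 284 of 360 tested genes lay below the mean of the other arrays in GS672.Ug. Their median shift was -0.38, where the other 6 arrays had 0.00 to 0.15. GS672.Ug was below the range of all 6 in 175 (48.6%), against 13.2% of all tested genes, and above it in 13. The stretch includes the HLA region and 4 of the 50 lower members, PBX2, GPANK1, ITPR3-AS1 and PRL. Of its 6 genes of highest mean signal, CLIC1, a chloride channel protein, read 31327 against 43308 to 48479, ECI2, a fatty acid isomerase, 31189 against 34359 to 52469, and RPS10 88575 against 92844 to 114266. RPL10A was above the others at 96493 against 82452 to 92571, and RPS18 and TUBB were within the range. From SDHAF4 to PDCD2 further along the same chromosome, 280 genes had a median shift of 0.04, with 33 (11.8%) below the range.

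On chromosome 17 the 240 tested genes from MGC70870 to ERAL1 (chr17:54857-28861061) had a median shift of 0.35 in GS672.Ug and -0.11 to 0.02 in the others. In GS672.Ug 119 of them (49.6%) lay above the range, against 15.7% of all tested genes. Here MPRIP, a myosin phosphatase partner, read 53064 against 19250 to 36260 and C1QBP, a mitochondrial protein, 32840 against 18967 to 26076. The next 40 genes, FLOT2 to RFFL, had a median of -0.09 and the 20 from RAD51D to TADA2A, which include SLFN11 and SLFN13, 0.45. The 100 genes after these, from DUSP14 to RPL27, had a median of -0.02, with 10 above the range and 15 below. A further 100 genes from DCAKD to PCTP had a median of 0.30, with 44 above the range and 0 below. On chromosome 15 the 143 genes from HERC2P3 to SECISBP2L had a median of 0.28 with 64 (44.8%) above the range, and the 300 beyond, from COPS2 to TARS3, -0.07. Those 300 genes had a median of 0.36 in GS689.Li, which lay above all other arrays in 165 of them. GREM1 lies in the first stretch of chromosome 15 and was lower by more than 2-fold. DNA copy number was not measured in the data used here.

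**Figure D4:**
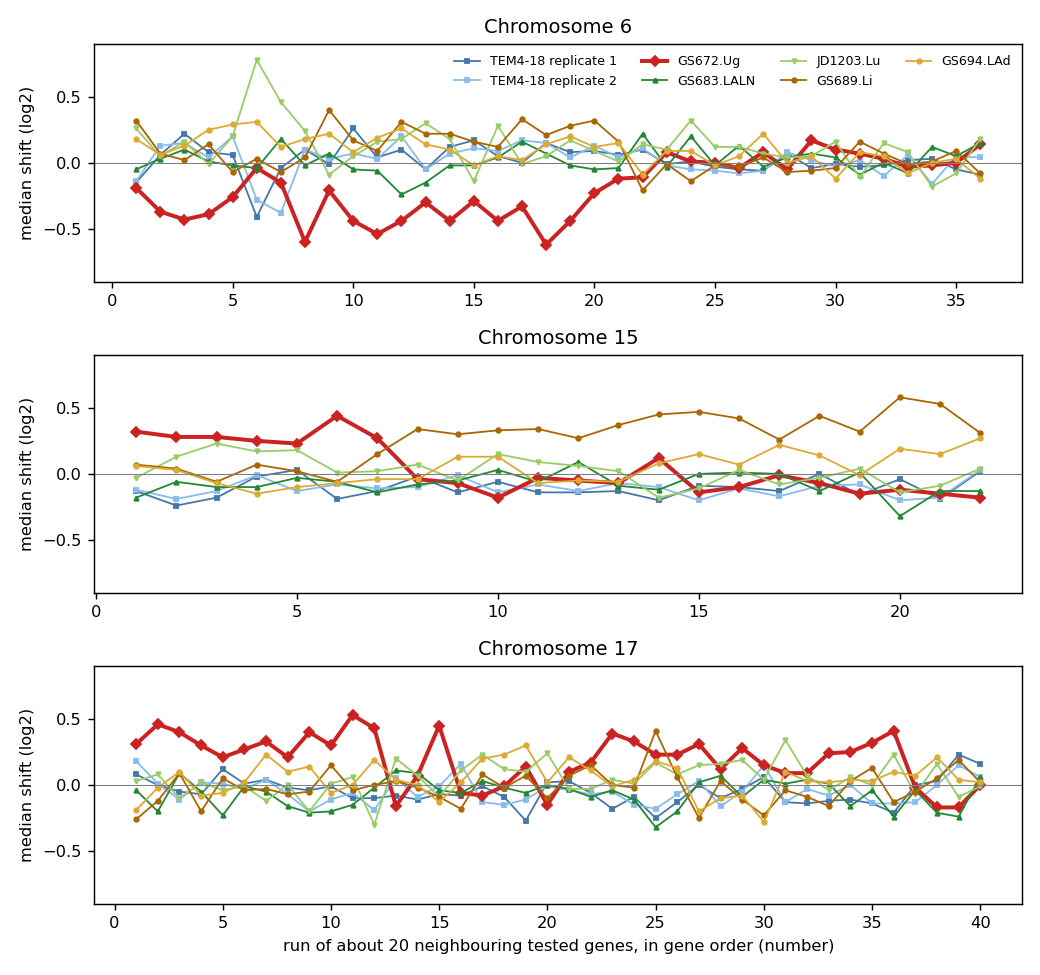
Median difference of each array from the mean of the 6 others (y axis, log2) over runs of about 20 neighbouring tested genes in gene order (x axis) on chromosomes 6, 15 and 17. GS672.Ug (red diamonds) lay below 0 in the first 22 runs of chromosome 6 and above 0 in the first 7 of chromosome 15 and the first 12 of chromosome 17.

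The whole table was also fitted with limma, as the difference between GS672.Ug and the mean of the 3 other groups (TEM4-18, its sublines, and the JD549.Ki sublines), with the spread taken from the pairs in those groups. At a Benjamini-Hochberg adjusted p under 0.05, 3 genes were higher (0.022%) and 0 lower (0.0%), with 891 and 806 at an unadjusted p under 0.05. They were CNTN1, with a difference of 5.35 ± 0.51 (SE, log2), DHRS2 with 3.68 ± 0.37 and SERPINB5 with 1.81 ± 0.16, each at a limma adjusted p of 0.0485. CNTN1 and DHRS2 are members, and the fit uses the values that chose them, so it adds no support for them. No gene was called without an offset, after median centring or after quantile normalization. SERPINB5, which encodes the serpin maspin, was no member, at 8477 in GS672.Ug, 7318 and 7644 in GS689.Li and GS694.LAd, and 1154 to 1554 in the TEM4-18 family. The single array of GS672.Ug was assumed to vary like the pairs. Without GS683.LALN the limma counts were 525 higher and 435 lower, without JD1203.Lu to 512 and 410, and without any of the other 4 they were 0 and 0. With 1 array against 6, an exact permutation test of a single value cannot go below p = 0.286 two-sided.

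Gene lists were read from this fit by counts and medians, with no list called, beside a median of 0.03 over all genes and 15.7% above and 13.2% below the range. Interferon-response genes had the highest median, 0.39, with 32 of 38 above 0 and 15 (39.5%) above the range of the 6 others, but none by 2-fold. MX1, an antiviral GTPase, read 1753 against 343 to 1214, and IFI44 1619 against 285 to 1428, while IFI27 read 109 against 41.4 to 772. Genes for respiratory chain subunits had a median of 0.14, with 28 of 35 above 0 and 14 above the range. Among them UQCRB read 73291 against 52083 to 64974 and UQCRC2 18633 against 12390 to 16646. Targets of NRF2, the oxidant-response factor, and xenobiotic enzymes had a median of 0.25, 20 of 24 above 0, with the glutathione transferase GSTM3 at 20307 against 9802 to 16844. Replication and licensing genes had a median of 0.15, 24 of 29 above 0, with GINS4 at 2480 against 892 to 1910.

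Mitosis genes lay on the other side, with a median of -0.28, 29 of 36 below 0 and 12 (33.3%) below the range. CCNB1, cyclin B1, read 15750 against 17300 to 24390. DLGAP5, a spindle protein, read 13006, like GS689.Li and GS694.LAd at 11727 and 11858, and the TEM4-18 family 28904 to 43904. Metallothioneins and zinc transporters had the lowest median, -0.49, with 9 of 11 below 0. Metallothionein copies are nearly identical, and that median was -0.002 once probe sets with the suffix _x_at, whose probes can match several genes, were dropped. MT1M read 571 against 990 to 4262. Mesenchymal genes had a median of -0.18 with 7 of 18 above 0, and 27 ribosomal protein genes one of 0.03, with 1 above the range and 0 below.

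**Figure D5:**
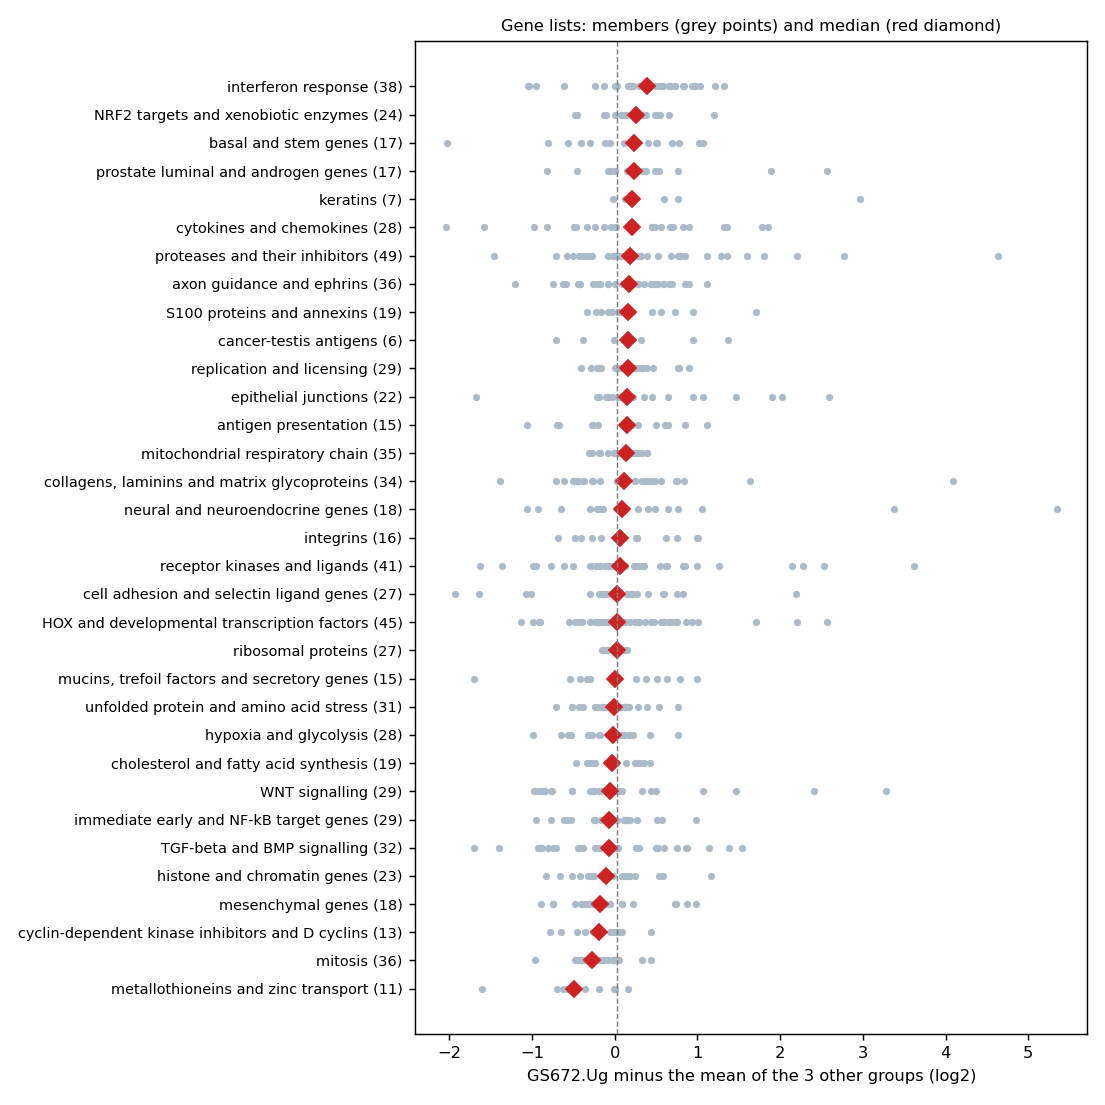
Difference of GS672.Ug from the mean of the 3 other groups (x axis, log2) for the tested members of 33 gene lists (grey points, their number in brackets) and each list's median (red diamond), with the median of all genes as a dashed line at 0.03. List medians ran from -0.49 for metallothioneins to 0.39 for the interferon response.

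Some genes that were no members also differed widely between the arrays. HAPLN1, a hyaluronan link protein, read 19544 in GS672.Ug, 38340 in GS689.Li, 49756 in GS694.LAd and 39.9 to 287 in the TEM4-18 family. PLAT, tissue plasminogen activator, read 37195 against 24238 and 11275 in the JD549.Ki sublines, 10041 in JD1203.Lu, 2535 in GS683.LALN and 1562 and 2189 in TEM4-18, so that it was highest in GS672.Ug by less than 2-fold. LY6K, a membrane-anchored surface protein, was lowest at 327 against 633 to 3939.

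The genes whose profile over the 7 arrays was most like that of NLGN4X were KLK10 (Pearson r = 0.9916), RAD51D (0.9826) and COBL (0.9817), a description in which the single array of GS672.Ug sets the value. RAD51D, a recombination protein, read 1141 in GS672.Ug and 746 to 815 in the others, and lies in the same run on chromosome 17 as SLFN11.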

How the data were processed

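Each of 7 samples was 1 hybridisation to a 1-colour array of 54675 probe sets. The deposited values are intensity (signal) values that the authors made with MAS5, per the submitters' processing notes; the sources used here do not give its version. Probe sets were named from the platform annotation, where 41097 had 1 symbol, 1801 several and 11777 none, and 13621 of 13640 tested genes were placed by RefSeq (GRCh38.p14).

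Before log2, 46.942 was added to every value (their 20th percentile). Probe sets with a mean under 160.7, the 40th percentile, were left out, and each gene was read from its probe set of highest mean. Differences were fitted with limma 3.58.1 (R 4.3.3; trend, 4 groups, 3 residual degrees of freedom) and Benjamini-Hochberg adjustment. The range count and the fit were tested on simulated data. Other steps used Python 3.11.15, numpy 2.4.6, pandas 2.3.3 and matplotlib 3.10.9.

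The plan for naming genes took the 15 widest distances in each direction and the 2 nearest the threshold on each side. It added list members outside the range, called or among the 3 with the largest differences, and neighbouring members. PC-3 identity genes and the 3 profiles most like the first gene completed it. Not all genes so chosen are named, as among the lower members, the gene lists and the PC-3 identity genes. Other members, relatives of members, other probe sets and chromosome stretches were chosen after their values were seen. The members and lists were chosen with earlier results of these data known. The alternatives tried were the offset, the filter, the array scaling, the choice of probe set, the limma model and each array left out. The number of arrays limits the precision.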

Additional observations from a re-analysis of the deposited data

How the results depend on the processing

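GS672.Ug is 1 array, so no alternative bears on its own spread. No paired analysis was possible because GS672.Ug has a single array and shares fewer than 2 replicate numbers with any other group. The 57 higher genes became 37 with a median-sized offset, 106 with no filter, 21 with the filter at the 60th percentile, and 30 and 21 at distances of 3-fold and 4-fold. The 50 lower genes became 89 without an offset, 3 with the median-sized one, 16 with the filter at the 60th percentile, and 8 and 3 at 3-fold and 4-fold. Counts stayed within 1.5 times under the other alternatives, with 59 to 85 higher and 55 to 66 lower when an array was left out; the causes beyond fewer or more genes tested were not tested.

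Limma's 3 higher calls became 49 with the median-sized offset, 6 with no filter, 1 with the filter at the 60th percentile, 7 with the mean of the probe sets, 7 without _x_at probe sets and 5 without the trend. They became 0 without an offset, under median centring, quantile normalization, the probe set chosen on the other 6 arrays, a model of 2 groups, and either pair of related arrays averaged. Its 0 lower calls became 12 with the median-sized offset, 7 with the mean of the probe sets and 4 without _x_at probe sets. Leaving out an array gave 0 to 525 higher and 0 to 435 lower calls.

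List medians moved by more than the spread over the 6 other arrays in 10 of 627 comparisons. With the filter at the 60th percentile these were cancer-testis antigens (0.847), mucins and secretory genes (-0.294) and adhesion and selectin ligand genes (-0.055). The adhesion list gave -0.01 with median centring, -0.049 with quantile normalization, 0.11 with the mean of the probe sets and -0.012 without _x_at probe sets. Histone and chromatin genes gave 0.022 with the mean of the probe sets, metallothioneins -0.002 without _x_at probe sets, and cholesterol genes -0.039 to 0.012 when an array was left out (0.012 without GS683.LALN). When probe sets were averaged, the differences of KDM6B, SC5D and SREBF2, none of them called, turned to 0.155, -0.008 and -0.116. The shift of the chromosome 6 stretch ran from -0.45 to -0.32 over 11 alternatives, added after the values were seen, and that of the chromosome 17 stretch up to ERAL1 from 0.28 to 0.37.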

Other observations

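Probe sets with no single gene symbol were read by the same rule. Of 6315 that passed the filter, GS672.Ug was 2-fold above the other 6 arrays in 17 (0.269%) and 2-fold below in 32 (0.507%), against 0.418% and 0.367% of the named genes. These probe sets were in no comparison of the report, and their genes are not named here.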
